A study of Homo sapiens with 2 samples.

Results

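The mitochondrial chromosome was described in SF-539 cells, an established human glioblastoma line, with and without depletion of FKBP9, a prolyl isomerase of the endoplasmic reticulum. All genes that the deposited table places on chromosome MT were taken, 37 of its 58735 genes. By biotype they were 13 protein-coding genes, 2 rRNA genes and 22 tRNA genes, and their positions and strands on hg38 were the same as in GENCODE release 44 for all 37. SF-539-shControl cells carried the lentiviral pGIPZ-CTRL construct and SF-539-shFKBP9 cells shRNA against FKBP9 from the same lentiviral library. Both were stable lines selected with puromycin, and differences between the lines that arose in transduction and selection cannot be told apart from those of FKBP9 depletion. The study describes several distinct shRNAs against FKBP9, and which of them, alone or together, the sequenced cells carried is not given in the sources used here, nor is the number of clones. One library was sequenced per group, and no difference between them has a replicate check. Values were FPKM, fragments per kilobase of gene and scaled to the fragments on all genes of the library, and whole fragments per gene were recovered from them. Intervals are exact at 95%, cover counting error only and compare the 2 libraries, not the conditions.

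Human mitochondrial DNA is a compact circle without introns. Its heavy and light strands are each copied into long transcripts, which are cut into mRNAs, rRNAs and tRNAs, largely by excision of the tRNAs that lie between the other genes. The mRNAs encode core subunits of respiratory complexes I, III and IV and of ATP synthase (complex V), the rRNAs form the mitochondrial ribosome, and the tRNAs decode the mRNAs inside the organelle. Every protein that copies, transcribes and processes this genome is encoded in the nucleus. In glioma cells, as in other tumours, respiration runs beside a high rate of glycolysis.

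Depth was 18116873 fragments on genes in shControl and 17158514 in shFKBP9. FKBP9 itself fell by 3.38 on the log2 scale, from 4659 to 415 fragments. Of the glioma markers examined, VIM had 25852 and 26122 fragments, CD44 8797 and 9547 and EGFR 2847 and 2731, in shControl and shFKBP9 respectively. Of the 4 glioma markers with at least 1000 fragments in both libraries together, CHI3L1, a secreted glycoprotein, was the only one past 1.2-fold, with 610 and 1132 fragments (log2 ratio 0.96, 0.83 to 1.11). The neural and glial genes were low, with 237 and 207 fragments on NES, 48 and 41 on OLIG2, 43 and 29 on GFAP, 4 and 7 on SOX2 and 0 and 1 on S100B. The cells are labelled as epithelial glioma cells, and of 5 epithelial markers KRT8 had the most fragments, 159 and 129, or 1.28 and 1.09 FPKM. EPCAM had 11 and 14 fragments, KRT18 9 and 5, KRT19 4 and 2 and CDH1 0 and 1.

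Mitochondrial genes held a nearly equal share of both libraries. They took up 385668 fragments in shControl, which was 2.13% of all fragments on genes (exact binomial interval 2.12 to 2.14%). In shFKBP9 they took up 377212 fragments, or 2.20% (2.19 to 2.21%). Without MT-RNR2, the gene of the large subunit rRNA, the shares were 2.03% and 2.07%. The composition moved more than the total. Protein-coding genes made up 94.1% of mitochondrial fragments in shControl and 92.6% in shFKBP9, and rRNA genes made up 5.26% (5.19 to 5.33%) and 6.71% (6.63 to 6.79%). The tRNA genes contributed 0.636% and 0.707%.

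The 3 subunits of cytochrome c oxidase, complex IV, had the highest mRNA levels per length. MT-CO1, which encodes the catalytic subunit, was at 3858 FPKM in shControl and 3978 FPKM in shFKBP9. MT-CO2, whose product receives electrons from cytochrome c, was at 3024 and 3125 FPKM, and MT-CO3 at 2557 and 2648 FPKM. These 3 genes held 181463 of 362928 mitochondrial mRNA fragments in shControl and 177650 of 349224, or 50.9%, in shFKBP9. Next in shControl came MT-ND4 with 2439 FPKM and MT-ATP6 with 2353 FPKM, which exchanged places in shFKBP9 with 2368 and 2385 FPKM. This pair was the only one of the 13 mRNAs whose order differed between the libraries.

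Below them, the complex I subunit genes MT-ND4L and MT-ND3 were at 1904 and 1197 FPKM in shControl and at 1594 and 1351 FPKM in shFKBP9. A group of 5 genes lay close together. MT-ND2, MT-ND1 and MT-CYB, the last encoding the cytochrome b of complex III, were at 904, 832 and 810 FPKM in shControl and at 937, 912 and 781 FPKM in shFKBP9. MT-ND6, the only mRNA gene of the light strand, was at 690 and 745 FPKM, which may include fragments of the opposite strand, and MT-ND5 at 564 and 552 FPKM. The FPKM of MT-CO1 was 6.84 times that of MT-ND5 in shControl and 7.21 times in shFKBP9. MT-ATP8 was listed below MT-ND5, at 163 and 166 FPKM, but it overlaps MT-ATP6 on 1 shared mRNA, so this value is not the level of a separate transcript. The plot of FPKM along the chromosome shows these values.

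**Figure D1:**
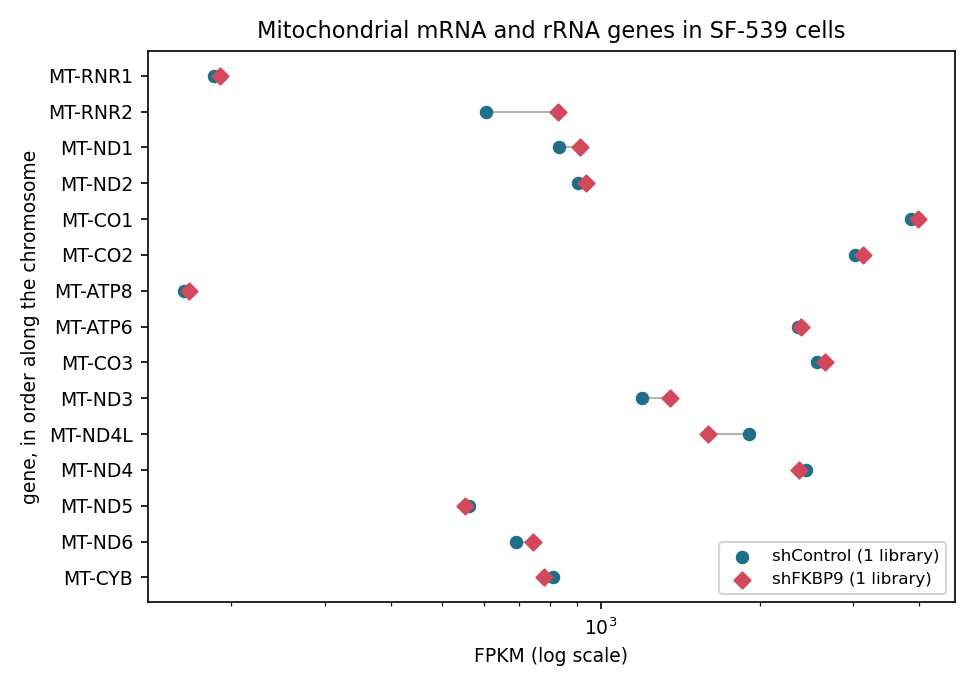
FPKM on a log scale for the 13 mRNA and 2 rRNA genes of chromosome MT, listed in their order along the chromosome, with 1 point for the shControl library and 1 for the shFKBP9 library. The 2 points of a gene nearly coincide from MT-CO1 at 3858 and 3978 FPKM to MT-ATP8 at 163 and 166 FPKM, and they lie apart for MT-RNR2 at 605 and 829 FPKM and for MT-ND4L at 1904 and 1594 FPKM.

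Some of these genes share bases, and a fragment that touches both genes of such a pair may have been assigned to neither. How the counting treated such fragments is not given in the sources used here. MT-ATP8 and MT-ATP6 encode neighbouring subunits of ATP synthase from 1 shared mRNA, with 46 bases in both reading frames, shown in capitals for chrM:8497-8602 on the plus strand of hg38, which is in the sense of these genes. MT-ND4L and MT-ND4 likewise share an mRNA and 7 bases, shown in capitals for chrM:10730-10796. The 2 stretches are printed because levels within each pair cannot be read as levels of separate transcripts.
MT-ATP8 to MT-ATP6: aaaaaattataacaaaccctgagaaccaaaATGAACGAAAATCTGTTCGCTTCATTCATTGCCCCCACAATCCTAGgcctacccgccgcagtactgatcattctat
MT-ND4L to MT-ND4: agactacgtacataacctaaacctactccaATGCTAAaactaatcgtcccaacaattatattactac

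Within the first pair, the FPKM of MT-ATP8 was 0.0693 of that of MT-ATP6 in shControl and 0.0696 in shFKBP9, a difference of 0.007 on the log2 scale (interval by the standard error of the log odds ratio -0.16 to 0.17). Within the second pair, the FPKM of MT-ND4L was 0.781 of that of MT-ND4 in shControl and 0.673 in shFKBP9, a difference of -0.21 (-0.26 to -0.17). The second pair therefore shifted by more than counting error and the first did not detectably shift at this depth.

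Each change is given as log2 of shFKBP9 over shControl, taken on FPKM after 0.1 was added; sums of genes had nothing added. For all 13 mRNAs together this log2 ratio was 0.021 (0.015 to 0.028), or 1.01-fold, from the fragment sums given above. Across the 13 mRNAs, single ratios had a median of 0.044. Over the 6393 genes of the whole table with at least 1000 fragments in both libraries together, the median was -0.021, and 95% of genes lay between -0.35 and 0.36. All 13 mRNAs lay inside that range.

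By complex, the sums were close to even. Complex I, which takes electrons from NADH, summed over its 7 mitochondrial genes to 135100 fragments without and 127795 with FKBP9 depletion, a log2 ratio of -0.003 (-0.014 to 0.008). Its members differed among themselves. MT-ND3 was higher, with 7502 and 8024 fragments (0.17, 0.13 to 0.22), as was MT-ND1, with 14400 and 14968 (0.13, 0.10 to 0.17). MT-ND6 had 6559 and 6717 fragments (0.11, 0.062 to 0.16) and MT-ND2 17058 and 16754 (0.051, 0.020 to 0.082). Values below 0 were found for MT-ND5, MT-ND4 and MT-ND4L. MT-ND5 had 18496 and 17175 fragments (-0.030, -0.060 to -0.0001) and MT-ND4 60845 and 56030 (-0.042, -0.059 to -0.026). MT-ND4L, with 10240 and 8127 fragments, had the lowest ratio of the mRNAs (-0.26, -0.30 to -0.21).

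MT-ND3 and MT-ND4L are separated by only 1 tRNA gene, MT-TR, yet stood at the upper and lower end of the 13 mRNAs. In shControl the FPKM of MT-ND3 was 0.629 of that of MT-ND4L and in shFKBP9 0.848. Of the 6393 genes with at least 1000 fragments, 482, or 7.54%, had a log2 ratio as low as that of MT-ND4L or lower. MT-ND4L therefore stood apart from the other mitochondrial mRNAs but not from the spread of nuclear genes.

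For complex III, MT-CYB had 16740 fragments in shControl but 15299 after depletion, at a log2 ratio of -0.053 (-0.085 to -0.021). The 3 genes of complex IV had nearly identical ratios, with 107716 and 105307 fragments on MT-CO1 (0.044, 0.032 to 0.056), 37450 and 36703 on MT-CO2 (0.048, 0.027 to 0.068) and 36297 and 35640 on MT-CO3 (0.050, 0.029 to 0.072). For complex V, MT-ATP6 had 29014 and 27890 fragments (0.020, -0.004 to 0.044) and MT-ATP8 611 and 590 (0.026, -0.14 to 0.19). The intervals of both ATP synthase genes include 0.

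**Figure D2:**
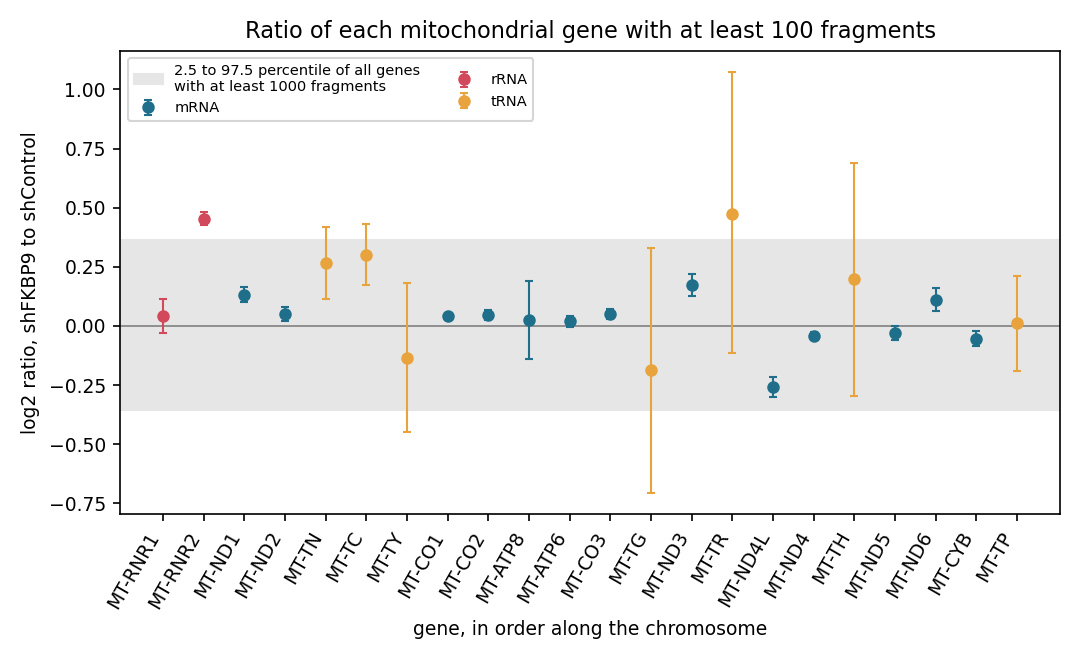
Log2 ratio of FPKM in shFKBP9 to shControl for each gene of chromosome MT with at least 100 fragments in both libraries together, in order along the chromosome, with exact 95% counting intervals as bars and colours for mRNA, rRNA and tRNA. The grey band runs from -0.35 to 0.36 and holds the middle 95% of all genes with at least 1000 fragments; among mRNAs and rRNAs, MT-RNR2 at 0.45 lies above it.

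The 2 rRNA genes stood apart from each other. MT-RNR2, for the large ribosomal subunit, had 17091 fragments in shControl against 22201 in shFKBP9, at 605 and 829 FPKM (log2 ratio 0.45, 0.43 to 0.48, or 1.37-fold). MT-RNR1, for the small ribosomal subunit, had 3196 and 3120 fragments, at 185 and 190 FPKM (0.042, -0.030 to 0.11). Both rRNAs come from the same strand, with only MT-TV between them. The FPKM of MT-RNR2 was 3.27 times that of MT-RNR1 in shControl and 4.35 times in shFKBP9, a difference of 0.41 on the log2 scale (interval by the standard error of the log odds ratio 0.34 to 0.49). MT-RNR2 alone accounted for 4.43% of mitochondrial fragments in shControl and 5.89% in shFKBP9.

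Among the 6393 genes with at least 1000 fragments, 78, or 1.22%, had a log2 ratio as high as that of MT-RNR2 or higher. At a depth closer to its own, it was 8 of 564 genes with at least 10000 fragments, or 1.42%. How RNA was selected before library preparation is not given in the sources used here. The fragments on rRNA genes also depend on that step. A difference in it between the libraries cannot be told apart from a difference in rRNA abundance. The 13 nuclear genes and pseudogenes named as copies of MT-RNR2 had 3 fragments in all in shControl and 4 in shFKBP9.

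A few tRNA genes of the light strand carried most tRNA fragments. MT-TC, the tRNA for cysteine, had 900 fragments in shControl and 1052 in shFKBP9, MT-TN, for asparagine, 658 and 750, MT-TP, for proline, 427 and 408, and MT-TY, for tyrosine, 184 and 159. These 4 genes held 88.4% of tRNA fragments in shControl and 88.8% in shFKBP9, and in both libraries their order was the same. The other 4 tRNA genes of that strand, MT-TA, MT-TQ, MT-TE and MT-TS1, had 4 fragments in all in shControl and 7 in shFKBP9. The light strand thus held both the most abundant tRNA genes and some that were hardly detected.

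MT-TC and MT-TN lie side by side, and the sequence from the start of MT-TC to the end of MT-TN is printed because these were the only tRNA genes with at least 1000 fragments in both libraries together. It spans chrM:5657-5826 of hg38 and is given on the minus strand, the sense of the genes. Capitals mark the 31 bases between them that belong to no annotated gene, a stem-loop known as the origin of light strand replication.
MT-TC to MT-TN: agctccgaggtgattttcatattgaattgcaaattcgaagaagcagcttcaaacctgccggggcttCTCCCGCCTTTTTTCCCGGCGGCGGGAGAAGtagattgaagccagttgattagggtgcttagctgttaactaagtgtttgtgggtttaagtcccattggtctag

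For comparison, the sequences of MT-TP (chrM:15956-16023), among the abundant genes, and of MT-TA (chrM:5587-5655) and MT-TE (chrM:14674-14742), among those hardly detected, are given in the same sense. The 4 abundant genes of this strand are 66 bases (MT-TC and MT-TY), 68 bases (MT-TP) and 73 bases (MT-TN) long, and the 4 hardly detected ones are 69 bases (MT-TA, MT-TE and MT-TS1) and 72 bases (MT-TQ) long.
MT-TP: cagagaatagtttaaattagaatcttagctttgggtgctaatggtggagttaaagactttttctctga
MT-TA: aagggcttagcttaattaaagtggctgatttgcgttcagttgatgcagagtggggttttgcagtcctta
MT-TE: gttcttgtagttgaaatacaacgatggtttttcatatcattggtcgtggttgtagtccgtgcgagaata

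MT-TC and MT-TN adjoin the 31 unannotated bases, and MT-TP adjoins the control region, 1122 bases without an annotated gene. MT-TF, the tRNA for phenylalanine, is a heavy strand gene at the other end of the control region. It had 0 fragments in shControl and 1 in shFKBP9. Whether adjoining sequence bears on the fragments of a tRNA gene was not tested. MT-TA lies 1 base from MT-TN. All tRNA genes are short compared with usual RNA-Seq fragments, and a fragment on a tRNA gene can also come from an uncut precursor. FPKM of these genes is therefore not compared with that of mRNAs. The library kit named in the labels does not by itself say that strand was kept, and the strand setting of the counting is not given in the sources used here. Without strand, fragments of MT-ND6 and of the light strand tRNAs cannot be told apart from those of heavy strand transcripts across them, which bears on their levels and ratios alike.

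Of the 14 heavy strand tRNA genes, 8 had 10 or more fragments in the libraries together, and all 14 had 280 in shControl and 291 in shFKBP9. MT-TH, for histidine, had 69 and 75 fragments and MT-TG, for glycine, 72 and 60. MT-TR, for arginine, had 44 and 58 and MT-TL2, for leucine, 36 and 45. All of these lie between MT-CO3 and MT-ND5, as does MT-TS2 with 13 and 20. MT-TL1, the leucine tRNA directly after MT-RNR2, had 26 and 17 fragments (log2 ratio -0.53, -1.51 to 0.40), and MT-TI and MT-TK had 6 and 4 each. Among the genes of this paragraph every interval of the ratio includes 0, so no difference was detectable at this depth. MT-TD had 4 and 2 fragments. MT-TV and MT-TM had 0 and 1, MT-TW had 1 and 0, MT-TT had 3 and 3, and on the light strand MT-TA had 3 and 3, MT-TQ 1 and 1 and MT-TE 0 and 3. MT-TS1 had 0 fragments in both libraries, which allows up to 3 in each.

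**Figure D3:**
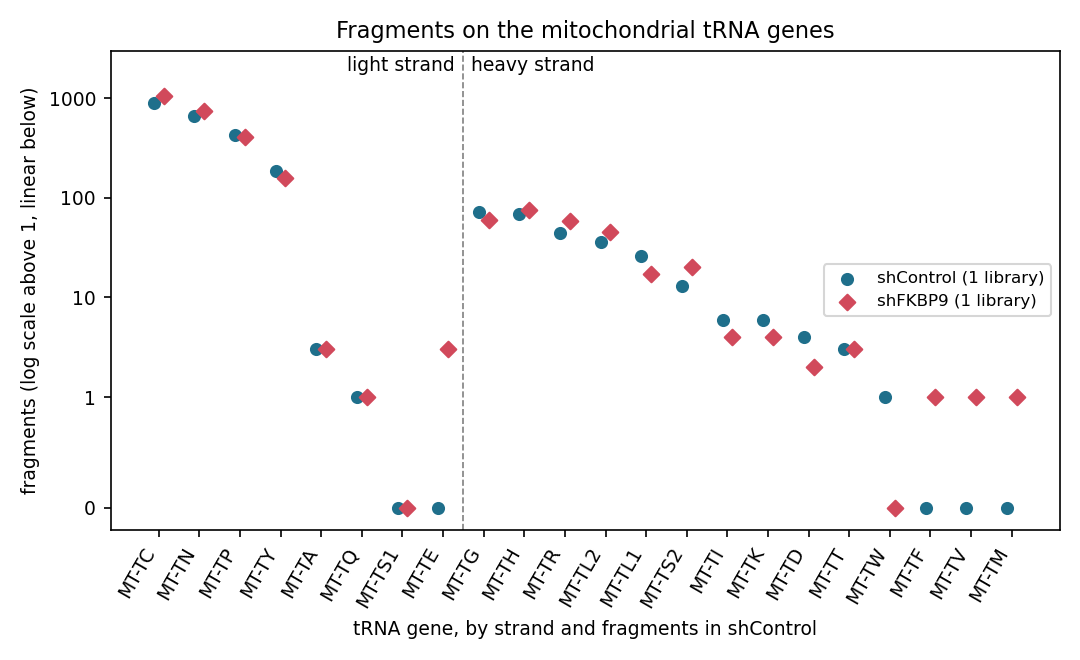
Fragments recovered for each of the 22 mitochondrial tRNA genes in the shControl and shFKBP9 libraries, on an axis that is logarithmic above 1 and linear below, with light strand genes on the left and heavy strand genes on the right of the dashed line. MT-TC, MT-TN, MT-TP and MT-TY lie between 159 and 1052 fragments in both libraries, and no heavy strand gene exceeds 75.

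Summed over all tRNA genes, 2453 fragments were found in shControl and 2667 after depletion, at a log2 ratio of 0.20 (0.12 to 0.28). Without MT-TC the value was 0.13. MT-TC was higher in shFKBP9, at a log2 ratio of 0.30 (0.17 to 0.43), as was MT-TN, at 0.27 (0.11 to 0.42). MT-TP (0.011, -0.19 to 0.21) and MT-TY (-0.13, -0.45 to 0.18) did not differ by more than counting error. The heavy strand tRNA genes together had a log2 ratio of 0.13 (-0.11 to 0.37), and the difference between the strands was not tested.

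Mitochondrial genes were also counted by thresholds. At least 1 FPKM in either library was reached by 31 of the 37 genes. On tRNA genes this takes few fragments, as MT-TA and MT-TT reached it with 3 in each library. MT-TE alone passed 2-fold, upwards, and since it had 0 and 3 fragments no fold is given. It met the minimum only through shFKBP9, at 2.53 FPKM against 0 in shControl, so its passing is not read as a difference. No mitochondrial gene passed 2-fold downwards. Over all 12741 genes at this minimum, 2.02% were more than 2-fold higher in shFKBP9 and 2.19% more than 2-fold lower. At least 1000 fragments in the libraries together were reached by 17 of the 37 genes, namely the 13 mRNAs, both rRNAs, MT-TC and MT-TN. Of these, 3 were more than 1.2-fold higher in shFKBP9, MT-RNR2, MT-TC and MT-TN, and 0 were more than 1.2-fold lower. Over all 6393 genes at this minimum, 6.68% were more than 1.2-fold higher and 7.12% more than 1.2-fold lower.

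MT-TN, at a log2 ratio of 0.27, and MT-ND4L, at -0.26, lay next to this limit. Rescaled to TPM, MT-TN was no longer past 1.2-fold, which left 2 genes upwards, and MT-ND4L passed it downwards. The 20 members under 1000 fragments were all tRNA genes, and their ratios add nothing to this count.

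**Figure D4:**
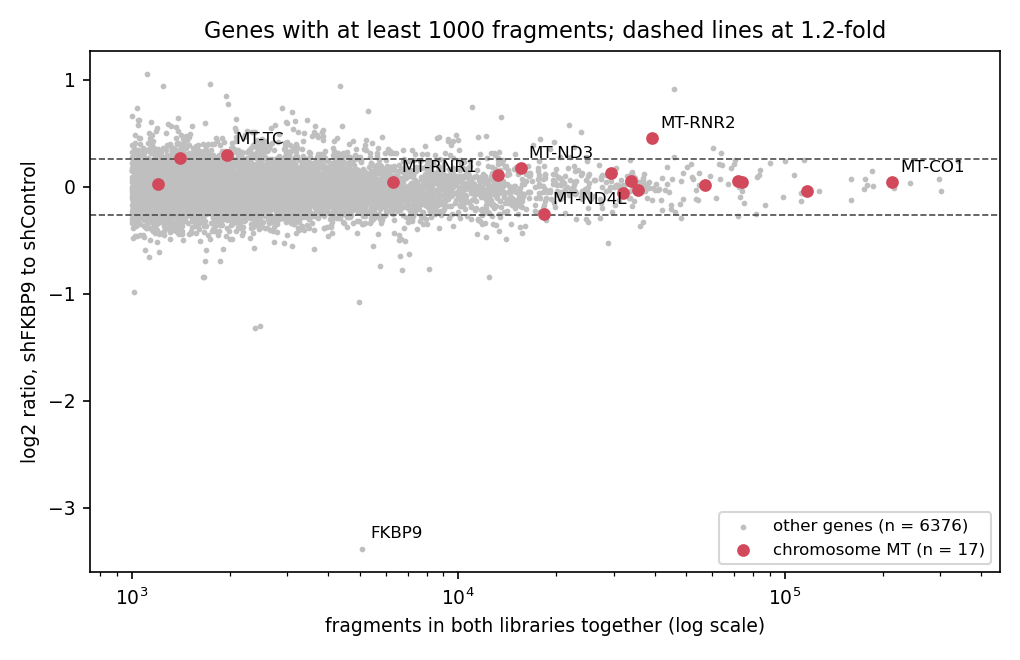
Log2 ratio of FPKM in shFKBP9 to shControl against the number of fragments in both libraries together, on a log scale, for all 6393 genes with at least 1000 fragments, with the 17 genes of chromosome MT in red and dashed lines at 1.2-fold. Most mitochondrial genes sit near 0 at high depth, MT-RNR2 lies at 0.45 and MT-ND4L at -0.26, and FKBP9 lies far below at -3.38.

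The mitochondrial chromosome has copies in nuclear DNA, and reads from identical stretches cannot be assigned. The table names 407 such copies outside chromosome MT, of which 45 had a fragment and 3 had at least 100. All 3 belong to 1 block on chromosome 1, from 629062 to 634922 of hg38, which carries copies of the genes from MT-ND1 to MT-CO3. MTATP6P1 had 1237 fragments in shControl and 1223 in shFKBP9, MTND2P28 1065 and 950, and MTCO1P12 361 and 388. In shControl and shFKBP9 they amounted to 4.09% and 4.20% of the fragments on MT-ATP6 and its copy, 5.88% and 5.37% of those on MT-ND2 and its copy, and 0.334% and 0.367% of those on MT-CO1 and its copy. The other copies of the block, MTND1P23, MTCO2P12, MTATP8P1 and MTCO3P12, had between 0 and 4 fragments in each library.

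All 7 copies of the block are close to their mitochondrial genes in sequence, with identities between 97.6% for MTATP8P1 and 98.7% for MTCO1P12 over the aligned bases. The 3 copies with at least 100 fragments were the 3 closest to their genes, with identities of 98.7% for MTCO1P12, 98.5% for MTATP6P1 and 98.4% for MTND2P28, while the other 4 had between 97.6% and 98.2%. Of the windows of 100 bases of the mitochondrial gene, MTCO1P12 holds 27.9% without a difference, MTND2P28 26.1% and MTATP6P1 11.9%. For the other 4 copies this share was between 0% for MTATP8P1 and 11.0% for MTND1P23. MTND1P23 and MTCO3P12 are partial, with 365 and 547 aligned bases of genes of 956 and 784 bases. Windows were counted over the whole gene, so the shares of these partial copies cannot be compared with the others. A stretch of 60 bases of MT-ATP6 (chrM:8642-8701) is shown with that of MTATP6P1 (chr1:633811-633870), both on the plus strand, because this copy had the most fragments. Capitals mark the 3 bases at which they differ, the most in any such stretch of this pair.
MT-ATP6 stretch: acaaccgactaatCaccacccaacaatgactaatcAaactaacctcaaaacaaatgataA
MTATP6P1 stretch: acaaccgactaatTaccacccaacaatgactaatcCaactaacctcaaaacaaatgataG

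Summed with all named copies, the median log2 ratio of the 13 mRNAs was 0.043 in place of 0.044. How the alignment treated reads with several equal positions is not given in the sources used here.

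Nuclear genes that act on mitochondrial DNA and its transcripts were also followed, in lists written from general knowledge. For transcription, 2 of 10 genes reached 1000 fragments and neither passed 1.2-fold. POLRMT, the mitochondrial RNA polymerase, had 2624 fragments without and 2164 with depletion (log2 ratio -0.20, -0.28 to -0.12), and TFAM, which packages mitochondrial DNA and starts transcription, had 673 and 744 (0.22, 0.069 to 0.37). For RNA processing and stability, 15 of 24 genes reached the minimum, none passed 1.2-fold in either direction, and the median was 0.048. In this list LRPPRC, which with SLIRP keeps mitochondrial mRNAs stable, had 1706 and 1790 fragments (0.14, 0.050 to 0.24), and ELAC2, which cuts tRNA 3′ ends, had 2132 and 1750 at a log2 ratio of -0.21, the lowest of these 15.

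For replication and nucleotide supply, 9 of 16 genes reached the minimum, 2 were more than 1.2-fold lower and 0 higher, with a median of -0.042. POLG, the catalytic subunit of the mitochondrial DNA polymerase, had 1503 fragments in shControl and 1137 in shFKBP9 (-0.32, -0.44 to -0.21). ATAD3A, a membrane ATPase of the mitochondrial nucleoid, had 1758 and 1324 (-0.33, -0.44 to -0.23); its near-copy ATAD3B had 1102 and 891 (-0.23), and shared reads were not tested. Among regulators of biogenesis, 6 of 15 genes reached the minimum, with a median of -0.10. YY1, a general transcription factor that also acts on genes for mitochondrial proteins, was past 1.2-fold, downwards, with 3983 and 2691 fragments (-0.49, -0.56 to -0.42). Among the 2, 15, 9 and 6 genes of these lists with at least 1000 fragments, 0 were more than 1.2-fold higher and 3 were lower, POLG, ATAD3A and YY1, where 6.68% and 7.12% of all genes at this minimum were. Genes of the lists under this minimum are not in these counts.

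The nuclear partners of the mitochondrial subunits were set beside them by complex. For complex I, 0 of 30 nuclear subunit genes at the minimum passed 1.2-fold, with a median log2 ratio of 0.003. The mitochondrial genes of complex I had a median of 0.051 and a summed ratio of -0.003. Its extremes were NDUFS8 (-0.17) and NDUFS4 (0.22), both subunits of the arm that faces the matrix. For complex III, 0 of 8 passed, with a median of -0.048, beside -0.053 for MT-CYB. Its extremes were UQCRFS1, the Rieske iron-sulfur protein (-0.21), and UQCR10, a small subunit (0.15). Complex IV had 1 of 11 past 1.2-fold, COX6A1 with 1045 and 1190 fragments (0.26, 0.14 to 0.39), and a median of 0.054. Its mitochondrial genes had a median of 0.048 and a summed ratio of 0.046. Of 17 nuclear genes of ATP synthase, 4 were more than 1.2-fold higher, ATP5ME (0.32), ATP5MPL (0.31), ATP5F1E (0.30) and ATP5PD (0.27), and 0 were lower, beside 6.68% and 7.12% over all genes. COX6A1 and ATP5PD lay next to the limit of 1.2-fold, and rescaling to TPM, which shifts every log2 ratio by -0.018, takes both below it. The lowest ratio was that of ATP5F1B, the catalytic beta subunit, which had the most fragments of this list, 15074 and 12423 (-0.20, -0.24 to -0.17). The median was 0.038, beside a median of 0.023 and a summed ratio of 0.020 for MT-ATP6 and MT-ATP8.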

How the data were processed

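RNA-Seq was analysed from SF-539 cells with control shRNA and with FKBP9 shRNA, 1 library each. The authors removed reads with adapters, undetermined bases or low quality, aligned paired-end reads to hg38 with HISAT2 2.0.5, counted them with featureCounts 1.5.0-p3, used edgeR, and deposited FPKM per gene. The annotation release is not given in the sources used here. Values times gene length were whole multiples of 1 step per library for 100% of values above 0 (tolerance 0.01), which gave fragments; 1 fragment per kilobase was 0.0552 FPKM in shControl and 0.0582 FPKM in shFKBP9. Ratios used FPKM with 0.1 added. Intervals are exact Clopper-Pearson intervals of fragments, conditional on the sum for ratios, at 95%; those of a ratio between 2 genes used the log odds ratio. No test between conditions was possible. Thresholds were 2-fold at 1 FPKM in either library and 1.2-fold at 1000 fragments together; folds with at most 3 fragments in both libraries are not given.

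The members and lists were chosen with earlier results of these data known. Named genes are all genes of chromosome MT, FKBP9, nuclear copies with at least 100 fragments, list members past 1.2-fold at 1000 fragments, otherwise the extremes of a list, and POLRMT, TFAM and LRPPRC; SLIRP, ATAD3B, ATP5F1B, CLPP, CHAC1, ALDH1L2, DDIT3, the cell type markers and rarer copies of the chromosome 1 block were added after their values were seen. Of 25 symbols for RNA processing, 24 were found. Alternatives were other additions to FPKM, other scalings, no minimum, sums with nuclear copies and smaller sets of genes. Simulated data held planted 3-fold changes and counting error only, with no other variation between libraries. There, 100% of 178 changed genes at 1000 fragments passed 1.2-fold and 1 of 6181 unchanged genes did. With these settings the simulation cannot show how often unchanged genes pass 1.2-fold between real libraries, or how often smaller changes are found. Sequences were read from hg38 and compared with Biopython 1.88, and figures were drawn with matplotlib 3.10.9; other steps used scipy 1.17.1, pandas 2.3.3 and numpy 2.4.6 under Python 3.11.15.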

Additional observations from a re-analysis of the deposited data

How the results depend on the processing

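No paired analysis was possible because each condition has 1 library, and no library could be left out. The 17 mitochondrial genes with at least 1000 fragments kept their sign in all 85 combinations of gene and alternative tried, and the largest shift was 0.018 on the log2 scale. These alternatives were other additions to FPKM, which hardly move genes at this level, and scalings that shift every gene alike. The ratio closest to no change was 0.020, for MT-ATP6, so these settings could not change a sign. As TPM that ratio was 0.0015. Counted over protein-coding genes alone, the mitochondrial share was 2.04% in shControl and 2.07% in shFKBP9, and with nuclear copies it was 2.14% and 2.21%. The summed mRNA had a log2 ratio of 0.038 with scaling by the median ratio and 0.0029 as TPM. The median of the 13 mRNAs was 0.061 with scaling by the median ratio, 0.026 as TPM and 0.021 as a mean over genes. The summed rRNA and tRNA stayed within their counting intervals under every alternative tried. With no minimum, 4 mitochondrial genes were past 2-fold upwards and 1 downwards, and 10 were past 1.2-fold upwards and 5 downwards, the added ones being tRNA genes under 1000 fragments. As TPM, 1 gene, MT-ND4L, was past 1.2-fold downwards. In the 9 nuclear lists, 10 of 113 genes were past 1.2-fold upwards and 3 downwards, where 6.68% and 7.12% of all genes at 1000 fragments were. No minimum gave 20 and 8, and a minimum of 100 fragments 18 and 7. The share over all genes was not taken at these lower minima, nor for the mitochondrial counts with no minimum.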

Other observations

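Along the heavy strand, the log2 ratio of shFKBP9 to shControl tended to be higher for genes near the start of the chromosome than for genes near its end. Over the 12 mRNAs of that strand, Spearman's rho between gene start and log2 ratio was -0.68 and Pearson's r -0.48. Over all 13 mRNAs, with MT-ND6 of the light strand, the values were weaker, -0.46 and -0.31. For the 12 mRNAs and both rRNA genes, 14 genes of the heavy strand, they were -0.66 and -0.58. These genes share their transcripts, their libraries and in part their bases, so the values describe this pair of libraries. Over the 12 mRNAs, rho and r with the log2 ratio were -0.13 and 0.0023 for length, 0.042 and 0.0031 for GC content and -0.028 and 0.047 for A content. Over the 14 genes they were 0.068 and 0.27 for length, -0.081 and -0.13 for GC content and 0.11 and 0.35 for A content. The longest run of A in the sense strand was 7 bases in MT-RNR2 and 6 in MT-RNR1, and MT-ND2, MT-CO1 and MT-ND4 also had runs of 7. The longest, 8 bases, was in MT-ND5, whose log2 ratio was -0.030.

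A mixed list held genes of the integrated stress response, which can follow mitochondrial dysfunction and also stress of the endoplasmic reticulum, together with mitochondrial chaperones and proteases. Of its 24 genes, 15 reached 1000 fragments. Past 1.2-fold were 5 upwards in shFKBP9 and 0 downwards, beside 6.68% and 7.12% over all genes at this minimum, and the median log2 ratio was 0.078. The 5 were PSAT1, an enzyme of serine synthesis (0.59), the transcription factors ATF4 (0.48) and ATF5 (0.45), SESN2 (0.43) and MTHFD2, a mitochondrial folate enzyme (0.43). The lowest of the 15 was CLPP, a mitochondrial protease (-0.11). With a minimum of 100 fragments 9 genes of the list were past 1.2-fold upwards, and with no minimum 10, again with 0 downwards. The share over all genes was not taken at these lower minima, so these counts have nothing to be set beside. Under 1000 fragments, CHAC1, an enzyme that degrades glutathione, had the largest ratio of the list, with 77 fragments in shControl and 280 in shFKBP9 (1.89, 1.57 to 2.32). ALDH1L2, a mitochondrial folate enzyme, had 414 and 576 (0.54, 0.37 to 0.74) and the transcription factor DDIT3 337 and 442 (0.47, 0.26 to 0.68).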
